A study of Mus musculus with 8 samples.

Results

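The CB1 receptor (CB1R) and the enzymes that make and break down its lipid ligands were followed through 9 genes in N2A cells: Cnr1, Cnrip1, Dagla, Daglb, Mgll, Abhd6, Abhd12, Napepld and Faah. They were chosen by role and found in the deposited table of 16980 genes by symbol in any letter case (CNR1, CNRIP1, DAGLA, DAGLB, MGLL, ABHD6, ABHD12, NAPEPLD and FAAH), and all 9 were present at every time point. N2A (Neuro2A) cells come from a neuroblastoma of the mouse, a tumour of the sympathetic lineage, and HU210 is a potent synthetic cannabinoid that activates CB1R. After 16 h in serum-free medium the cells received 2 µM HU210 dissolved in DMSO, or drug-free DMSO, and mRNA was collected after 2, 4, 6 or 8 h. Each of the 8 conditions was 1 library, in which mRNA of 2 to 3 separate experiments had been combined, so a difference at a single time point has no replicate error, and the repeats of the drug contrast are the 4 time points. Levels are FPKM, read fragments scaled to transcript length and library size, and so comparable between genes of different length. A log2 change is the log2(FPKM + 1) of the HU210 library minus that of the DMSO library of the same hour, which understates the change of genes with low FPKM.

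CB1R is a Gi/o-coupled receptor of neurons whose activation lowers cyclic AMP and, at presynaptic endings, transmitter release. Its main ligand, 2-arachidonoylglycerol (2-AG), is cut from diacylglycerol by the diacylglycerol lipases and is removed by the hydrolases Mgll, Abhd6 and Abhd12. The other ligand, anandamide, is released from N-acylphosphatidylethanolamine, chiefly by Napepld, and is hydrolysed by Faah. In developing neurons, 2-AG made within the growing axon acts on CB1R there.

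The cells carried the transcripts of sympathetic neuroblastoma. Of 10 such markers 8 were listed, all with a mean FPKM of at least 1, among them Hand2 at 84.8, Stmn2 at 145 and Phox2a at 41.1, whereas the catecholamine enzymes Th and Dbh were low at 2.00 and 1.14. The highest value in any library was 0.590 FPKM for the listed markers of astrocytes, 0.189 for those of microglia or other blood cells, 5.10 for oligodendrocytes, 1.303 for fibroblasts and 1.28 for endothelium. The libraries held 11328 to 11444 genes with an FPKM of at least 1, and each correlated across genes with the mean of the others at 0.994 to 0.997 on the log2 scale. The read depth behind a single FPKM value is unknown, and no counting error can be given. In bulk RNA, fewer cells that express a gene and less RNA per cell cannot be told apart.

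The promoters of Cnr1 and Faah are printed because these were the members with the widest changes at 4 h, in opposite directions. Both are RefSeq sequences on build GRCm38.p6, running from 250 bases before to 50 bases after the transcript start, while gene positions in the text are on mm9. Capitals mark GC boxes, the GGGCGG letters on which Sp1 family factors bind, read on either strand (CCGCCC), and 1 EGR site (GCGTGGGCG, read on the opposite strand as CGCCCACGC). The Cnr1 sequence is the first of 3 annotated starts, chr4:33924014-33924313 on the plus strand, and the Faah sequence is chr4:116017875-116018174 on the minus strand.
Cnr1 promoter: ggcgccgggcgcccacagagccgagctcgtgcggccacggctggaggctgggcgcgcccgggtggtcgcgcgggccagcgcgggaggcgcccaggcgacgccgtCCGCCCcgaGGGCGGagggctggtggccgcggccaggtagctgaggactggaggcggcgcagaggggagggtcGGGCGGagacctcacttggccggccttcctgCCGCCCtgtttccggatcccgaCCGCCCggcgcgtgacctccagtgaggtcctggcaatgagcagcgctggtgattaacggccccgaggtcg
Faah promoter: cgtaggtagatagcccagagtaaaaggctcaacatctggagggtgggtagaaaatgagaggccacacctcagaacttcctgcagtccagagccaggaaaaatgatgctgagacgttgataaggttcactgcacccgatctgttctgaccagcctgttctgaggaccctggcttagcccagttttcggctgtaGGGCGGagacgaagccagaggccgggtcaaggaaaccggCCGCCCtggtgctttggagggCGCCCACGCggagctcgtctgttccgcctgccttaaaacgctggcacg
The Cnr1 window had a GC content of 76.3%, 40 CpG dinucleotides and 5 GC boxes, against 57.7%, 16 CpG and 2 GC boxes in the Faah window. The other annotated Cnr1 starts had 0 GC boxes, with a GC content of 69.0% and 33 CpG for one and 46.3% and 5 CpG for the other, and which start these cells use was not measured. A GC box occurred in 35.7% and the EGR site in 0.612% of all 32851 mouse promoters of this length. Of the 11 promoters found for 7 of the members, only that of Faah held the EGR site. None of the 11 held a match to the STAT site TTCNNNGAA, present in 8.30% of all promoters, to the cAMP response element TGACGTCA, present in 1.79%, or to TATAAA, present in 13.6%, on either strand. These matches are letters in a window and were not measured as binding.

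The receptor was one of the better expressed members and the most variable. Averaged over the 8 libraries, Abhd12 stood highest at 24.8 ± 2.24 FPKM (SD, n = 8), followed by Cnrip1 at 22.9 ± 1.60, Cnr1 at 21.5 ± 4.59, Daglb at 14.1 ± 0.757, Abhd6 at 9.99 ± 0.878 and Faah at 6.16 ± 0.961. Mgll at 2.01 ± 0.199, Dagla at 1.83 ± 0.266 and Napepld at 1.22 ± 0.138 FPKM were close to the minimum mean FPKM of 1 used for the tests. The SDs cover both treatments and all hours. Abhd12 exceeded Cnrip1 in 7 of 8 libraries, Cnrip1 exceeded Cnr1 in 5 of 8 and Mgll exceeded Dagla in 5 of 8, with overlapping ranges, so these neighbours were not separated. The other 5 neighbouring pairs kept their order in 8 of 8 libraries with ranges that did not overlap.

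**Figure D1:**
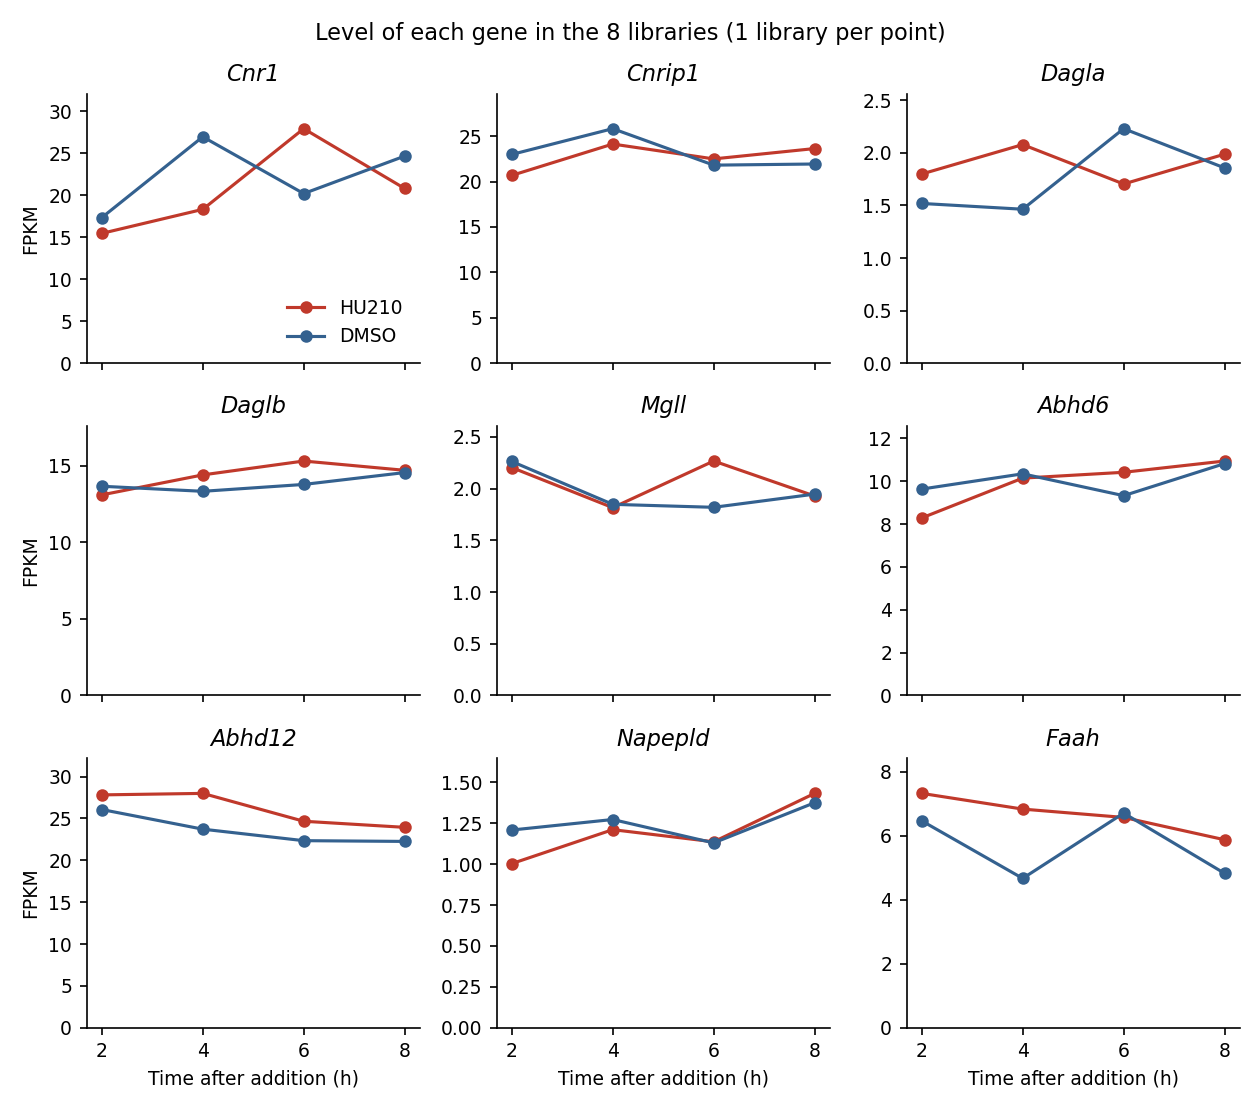
Level (FPKM, axis from 0) of the 9 genes against hours after addition of HU210 (red) or DMSO (blue), with 1 library per point and no error bars because each condition has 1 library. The lines of Cnr1 cross between 4 h and 6 h and again before 8 h, from 18.3 against 27.0 FPKM at 4 h to 27.9 against 20.2 at 6 h, and only for Abhd12 does HU210 lie above DMSO at all 4 time points.

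Cnr1 (ENSMUSG00000044288), which encodes CB1R, lies on chromosome 4, 34011568 to 34035806, on the plus strand. Its level at 2 h was 15.5 FPKM with HU210 and 17.3 with DMSO, and at 4 h it was 18.3 and 27.0. At 6 h it was 27.9 with HU210 and 20.2 with DMSO, and at 8 h it was 20.8 and 24.7. HU210 libraries were thus the lower ones at 2 h, 4 h and 8 h and the higher one at 6 h, and the DMSO libraries alone ranged from 17.3 to 27.0. The log2 changes were -0.16, -0.53, 0.45 and -0.24 at 2, 4, 6 and 8 h. The values at 4 h and 6 h passed the 1.3-fold cutoff. This is the lower of the fold cutoffs that the study used together with an adjusted p-value to define DEGs. That p-value was not used here, so passing the fold alone does not make Cnr1 a DEG of the study. At 4 h, 19.9% of all 11306 genes tested were lower by 1.3-fold and 28.9% passed it in either direction. At 6 h, 6.39% were higher by 1.3-fold, and 4.48% of all genes were, like Cnr1, lower at 4 h and higher at 6 h by that fold. Neither Cnr1 value passed 1.5-fold.

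Over the 4 time points the mean log2 difference of Cnr1 between HU210 and DMSO was -0.12 (SE 0.16), with a limma 95% interval from -0.51 to 0.27, or 0.704-fold to 1.20-fold. It did not pass the test (limma, adjusted p = 0.99996), and it was 0.019 without the 4 h libraries, -0.31 without those of 6 h and -0.079 with the GC and length trend removed. The late drug effect (6 h and 8 h) exceeded the early one (2 h and 4 h) by 0.45 (SE 0.26; limma adjusted p = 0.41), a difference that was 0.26 without 4 h, 0.11 without 6 h, 0.79 without 8 h and 0.18 with the GC and length trend removed. Irrespective of treatment, the slope was 0.071 log2 per hour (SE 0.036; limma adjusted p = 0.49), and it was 0.0064 without 2 h and 0.13 without 8 h. Over the 8 libraries the SD of log2(FPKM + 1) of Cnr1 was 0.29, larger than that of 92.1% of all genes tested.

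The values of Cnr1 at 2 h, 4 h and 6 h had the sign of the median of transcripts with like GC content. The value at 8 h had the opposite sign. The exons of Cnr1 have a GC content of 44.6%, against a median of 50.02% over all genes tested. Among the 2166 genes within 2 percentage points of that content the median log2 change was -0.08, -0.27, 0.12 and 0.07 at 2, 4, 6 and 8 h. Over all genes tested it was -0.05, -0.08, 0.06 and 0.04, with the same signs. Cnr1 lay inside the interquartile range of the 2166 genes at 2 h, from -0.163 to 0.007. It lay outside that range at 4 h (-0.46 to -0.08), 6 h (0.02 to 0.24) and 8 h (-0.03 to 0.18). After the trend of the log2 change on GC content and exon length was removed, the values of Cnr1 were -0.09, -0.25, 0.31 and -0.30, none of which passed 1.3-fold. With the 4 DMSO libraries averaged as the reference they were -0.48, -0.25, 0.33 and -0.08, of which the value at 2 h passed. Of the 8 neuroblastoma markers, 2, 3, 7 and 3 had a higher level with HU210 at 2, 4, 6 and 8 h, beside 36.0%, 40.9%, 65.6% and 62.5% of all genes tested. At 4 h the log2 change was -0.71 for Phox2a and -0.52 for Hand2 but 0.25 for Stmn2, the most abundant of them, and at 6 h it was 0.40, 0.53 and 0.11. The summed level of the 8 markers ran from 345.1 to 436 FPKM with HU210 and from 347 to 411 with DMSO. The part of GC content and of cell state in the Cnr1 values was not tested.

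**Figure D2:**
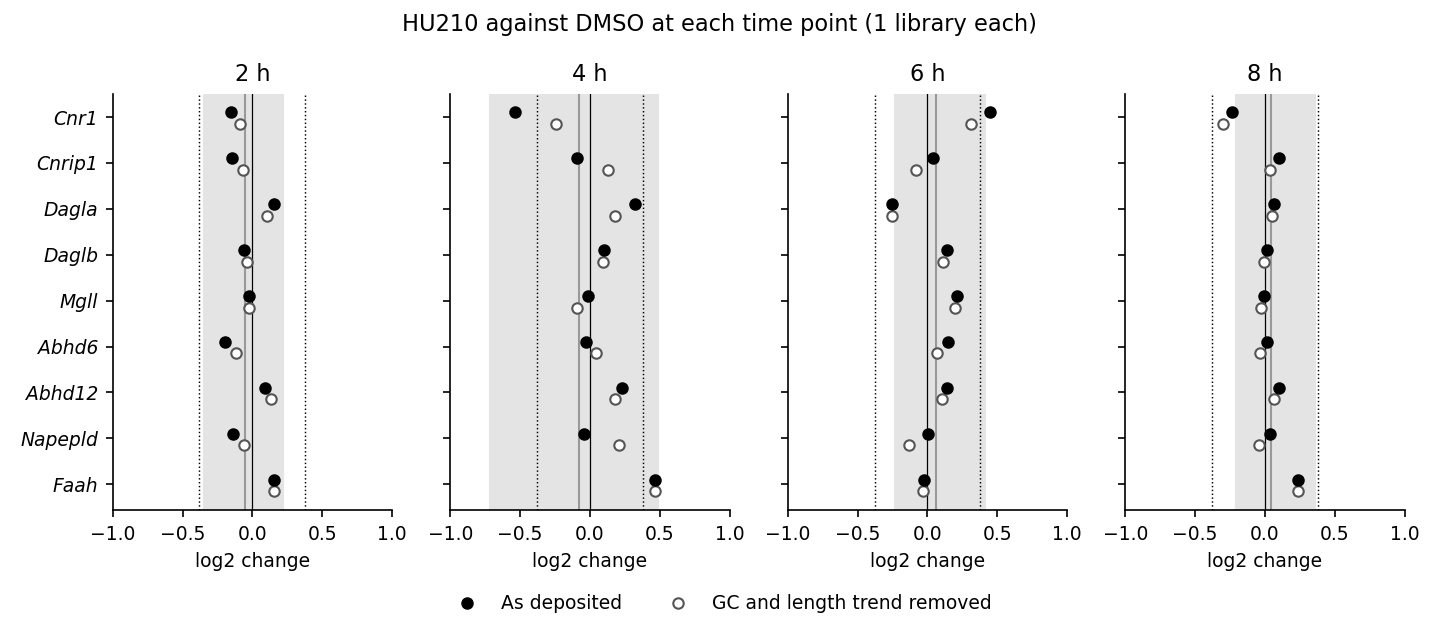
Log2 change of each member (rows) at 2, 4, 6 and 8 h, HU210 against DMSO with 1 library each, as deposited (filled) and after removal of the GC and length trend (open). Grey bands span the 5th to 95th percentile of all 11306 genes, the grey line is their median and dotted lines mark 1.3-fold. Only Cnr1 at 4 h (-0.53) and 6 h (0.45) and Faah at 4 h (0.47) lie outside the dotted lines among the filled points, and the grey band is widest at 4 h.

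Cnrip1 (ENSMUSG00000044629; chromosome 11, 16951589 to 16979374, plus strand) encodes a protein that binds the C-terminal tail of CB1R. Its level was 20.7 FPKM with HU210 and 23.0 with DMSO at 2 h, 24.1 and 25.8 at 4 h, 22.5 and 21.8 at 6 h, and 23.6 and 21.9 at 8 h. HU210 was lower at the early and higher at the late time points, by less than 1.3-fold each time and with overlapping groups. The log2 changes were -0.15, -0.09, 0.04 and 0.10. The ratio of Cnr1 to Cnrip1 was 0.934 ± 0.186 (SD, n = 8) and ranged from 0.747 in the 2 h HU210 library to 1.24 in the 6 h HU210 library. Cnrip1 had a coefficient of variation of 6.96% over the libraries, against 21.4% for Cnr1. The gene overlaps Plek on the other strand, and whether reads were assigned by strand is not given in the sources used here.

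The diacylglycerol lipases, which make 2-AG, were represented mostly by Daglb. In brain, Dagla is the lipase that supplies 2-AG for synaptic signalling. Daglb (ENSMUSG00000039206; chromosome 5, 144225361 to 144265310, plus strand) held 88.5 ± 1.45% (SD, n = 8) of the summed FPKM of both genes, between 86.1% and 90.1%. Its level was 13.1 FPKM with HU210 and 13.7 with DMSO at 2 h, 14.4 and 13.3 at 4 h, 15.3 and 13.8 at 6 h, and 14.7 and 14.5 at 8 h. It was the steadiest member, with a coefficient of variation of 5.37% and an SD on the log2 scale above that of only 6.70% of genes tested. Its log2 changes were -0.06, 0.10, 0.14 and 0.01.

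Dagla (ENSMUSG00000035735; chromosome 19, 10319755 to 10379367, minus strand) was near the expression minimum. Its level was 1.80 FPKM with HU210 and 1.52 with DMSO at 2 h, 2.08 and 1.46 at 4 h, 1.70 and 2.23 at 6 h, and 1.99 and 1.86 at 8 h. The lowest and the highest value were both in DMSO libraries, at 4 h and 6 h, and the log2 changes were 0.15, 0.32, -0.26 and 0.06. The value at 4 h passed 1.3-fold with a pseudocount of 0.1 in place of 1 (0.48) and with the libraries centred on their medians (0.42). The late drug effect was below the early one by a log2 difference of -0.33 (SE 0.18; limma adjusted p = 0.38), which did not pass the test and was -0.17 without the 6 h libraries. Dagla had the highest GC content of the members, 58.8%, and Cnr1 the lowest.

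Of the hydrolases of 2-AG, Abhd12 was the most abundant transcript and Mgll, which carries most 2-AG hydrolysis in brain, the least. Abhd12, an integral membrane lipase that also degrades lysophosphatidylserine, held 67.3 ± 2.94% (SD, n = 8) of their summed FPKM, Abhd6 27.2 ± 2.95% and Mgll 5.46 ± 0.493%. Abhd12 (ENSMUSG00000032046; chromosome 2, 150658229 to 150730477, minus strand) stood at 27.8 FPKM with HU210 and 26.1 with DMSO at 2 h, 28.0 and 23.7 at 4 h, 24.7 and 22.3 at 6 h, and 23.9 and 22.3 at 8 h. HU210 was the higher library at all 4 time points, as for 4.5% of all genes tested, although the groups overlapped. The log2 changes were 0.09, 0.23, 0.14 and 0.10, with a mean of 0.14 (SE 0.070; limma 95% interval -0.031 to 0.31, adjusted p = 0.99996). The HU210 library was also the higher one at every time point with the libraries centred or with the GC and length trend removed. The same held with the averaged DMSO libraries as the reference, under which it held for Faah too. Abhd12 overlaps the snoRNA gene SNORA48 on the other strand.

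Abhd12 had the lowest unadjusted p of the members for the slope over the hours, while Cnr1 had the largest slope. The slope of Abhd12 was -0.038 log2 per hour (SE 0.014; limma adjusted p = 0.36, unadjusted p from the same limma fit 0.025), so the adjusted test was not passed. Of the 27 member tests (9 genes in 3 fits) this alone had an unadjusted p under 0.05 at the main settings. That is 1 of 9 members for the slope, beside 11.7% of all genes. With the GC and length trend removed, Abhd6 and Abhd12 both had an unadjusted limma p of 0.017 for the slope. Alternatives also gave unadjusted limma p-values under 0.05 in the other fits. Examples for the drug contrast were Cnr1 (0.038) and Faah (0.036) without 6 h, and Abhd12 (0.020) without the filter on the mean FPKM. Examples for the late-minus-early effect were Dagla (0.043) with centred libraries and Cnrip1 (0.047) without that filter. The share of Abhd12 among the hydrolases went from 72.6% with HU210 and 68.7% with DMSO at 2 h to 65.0% and 63.5% at 8 h. The share of Abhd6 went from 21.6% and 25.4% at 2 h to 29.7% and 30.9% at 8 h.

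**Figure D3:**
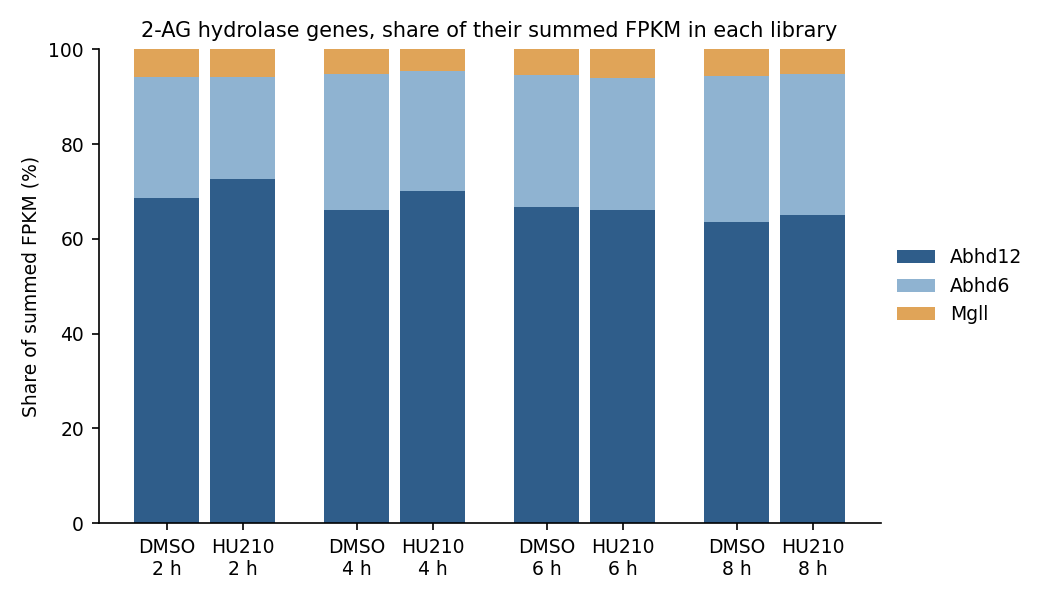
Share (%) of Abhd12, Abhd6 and Mgll in the summed FPKM of the 3 genes, 1 bar per library, with DMSO and HU210 side by side at each hour. Abhd12 fills 63.5% to 72.6% of every bar and Mgll 4.55% to 6.07%.

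Abhd6 (ENSMUSG00000025277; chromosome 14, 8835416 to 8889069, plus strand), a membrane hydrolase of 2-AG on the postsynaptic side, was 8.29 FPKM with HU210 and 9.63 with DMSO at 2 h, 10.1 and 10.3 at 4 h, 10.4 and 9.33 at 6 h, and 10.9 and 10.8 at 8 h. The 2 h HU210 library was the lowest of the 8, and the treatments overlapped. Its log2 changes were -0.20, -0.03, 0.14 and 0.01, and its slope of 0.036 log2 per hour (SE 0.018; limma adjusted p = 0.48) did not pass the test and was 0.020 without the 2 h libraries.

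Mgll (ENSMUSG00000033174; chromosome 6, 88674406 to 88778354, plus strand), monoacylglycerol lipase, was 2.20 FPKM with HU210 and 2.26 with DMSO at 2 h, 1.82 and 1.85 at 4 h, 2.27 and 1.82 at 6 h, and 1.93 and 1.95 at 8 h. The treatments were nearly level at 2 h, 4 h and 8 h, and the 6 h HU210 library was higher, with a log2 change of 0.21 against -0.03, -0.02 and -0.01 at the other hours. Its locus overlaps the noncoding gene Gm16628 on the other strand.

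Summed over the 3 hydrolases, the level was 38.3 FPKM with HU210 and 38.0 with DMSO at 2 h, 39.9 and 35.9 at 4 h, 37.3 and 33.5 at 6 h, and 36.8 and 35.0 at 8 h. HU210 was higher at 4 of 4 time points, by a mean of 2.51 FPKM, and the mean level of Abhd12 alone was 26.1 FPKM with HU210 and 23.6 with DMSO. A two-sided exact permutation test over the 4 pairs gave p = 0.125, the smallest p that 4 pairs allow, and adjusted p = 0.42 over the 10 sums, shares and ratios examined. The ratio of summed hydrolases to summed lipases was 2.32 ± 0.183 (SD, n = 8), and the difference between HU210 and DMSO was 0.061 on average (exact permutation p = 0.25, adjusted p = 0.42).

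Of the anandamide enzymes, Napepld had the lowest mean level of the members, while Faah stood between Abhd6 and Mgll. Napepld (ENSMUSG00000044968; chromosome 5, 21168719 to 21207214, minus strand), the phospholipase D that releases anandamide, was 1.003 FPKM with HU210 and 1.21 with DMSO at 2 h, 1.21 and 1.27 at 4 h, 1.14 and 1.13 at 6 h, and 1.43 and 1.37 at 8 h. The 2 h HU210 library was the lowest and the 8 h HU210 library the highest. Its log2 changes lay between -0.14 and 0.03. It overlaps a pseudogene, Gm15719, on the other strand.

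Faah (ENSMUSG00000034171; chromosome 4, 115639750 to 115690531, minus strand), fatty acid amide hydrolase, was 7.32 FPKM with HU210 and 6.47 with DMSO at 2 h, 6.83 and 4.67 at 4 h, 6.57 and 6.71 at 6 h, and 5.87 and 4.82 at 8 h. HU210 was higher at 2 h, 4 h and 8 h and close to DMSO at 6 h, where DMSO was at its highest. The log2 changes were 0.16, 0.47, -0.03 and 0.24. The value at 4 h passed 1.3-fold in the direction in which 8.97% of all genes passed it, and it was also 0.47 with the GC and length trend removed. With the averaged DMSO libraries as the reference the values were 0.33, 0.25, 0.20 and 0.06, none past 1.3-fold, since the 4 h DMSO library was the lowest of the 8. The mean log2 difference was 0.21 (SE 0.099; limma 95% interval -0.031 to 0.45, adjusted p = 0.99996), the largest of the 9 members, and it was 0.12 without the 4 h libraries. The ratio of Faah to Napepld was 5.16 ± 1.31 (SD, n = 8), higher with HU210 at 3 of 4 time points (exact permutation p = 0.25, adjusted p = 0.42).

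**Figure D4:**
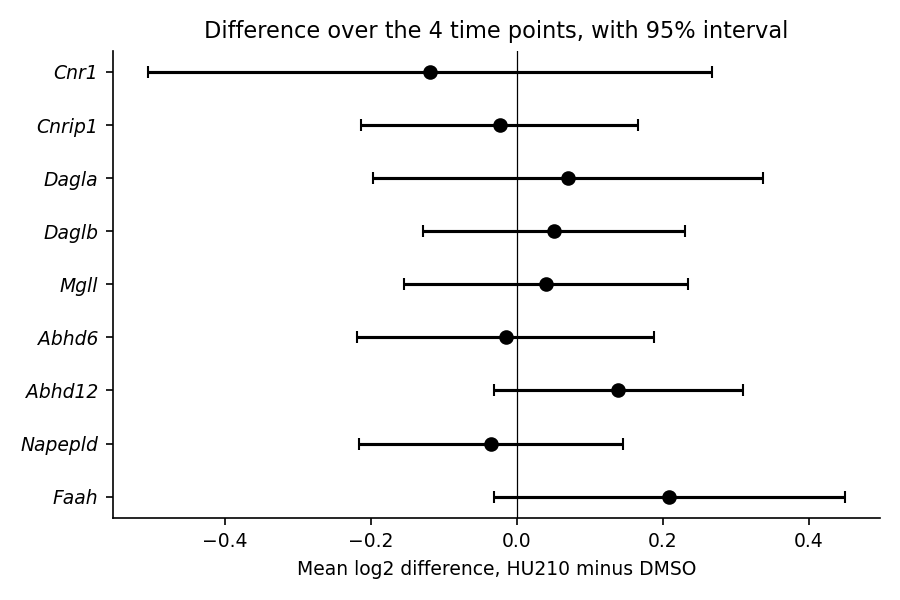
Mean log2 difference between HU210 and DMSO over the 4 time points for each member, from limma with the time point as a factor, with its 95% interval (bars). All 9 intervals include 0, and that of Cnr1, from -0.51 to 0.27, is the widest.

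None of the members passed a test. At an adjusted p of 0.05, limma called 0 of 9 members and 0 of 11306 genes, which is 0% of the background, in each of the 3 fits, namely the drug contrast, the slope over hours, and the late against the early drug effect. Without the mean-variance trend of limma the calls were also 0. At an unadjusted p under 0.05 these fits held 148, 1318 and 1925 genes, or 1.31%, 11.7% and 17% of the genes. For Cnr1 the interval of the mean difference includes changes larger than 1.3-fold downward, and for Faah changes larger than 1.3-fold upward. A missed threshold does not show that HU210 and DMSO were alike. In none of the members were the HU210 and DMSO libraries separated without overlap, as they were for 0.743% of all genes.

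By fold alone, 3 of the 36 member values passed 1.3-fold: 0 of 9 at 2 h, where 5.4% of all genes passed, 2 of 9 at 4 h (28.9%), 1 of 9 at 6 h (8.1%) and 0 of 9 at 8 h (5.82%). None passed 1.5-fold, which 1.95%, 11.5%, 2.37% and 1.72% of all genes did at 2, 4, 6 and 8 h. By direction, 0 members were lower by 1.3-fold at 6 h (1.72% of all genes) and at 8 h (1.44%), and 0 were higher at 2 h (1.49%) and at 8 h (4.38%). None was lower with HU210 at all 4 time points, as 3.43% of all genes were. The median log2 change of the members was -0.06, -0.02, 0.14 and 0.03 at 2, 4, 6 and 8 h, beside -0.05, -0.08, 0.06 and 0.04 over all genes. With each library centred on its median 26 of the 36 member values kept their sign, and with the GC and length trend removed 28 did.

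Across all genes the log2 change at 4 h went with GC content, with a Spearman correlation of 0.50 across 11306 genes, and it was 0.15, -0.27 and -0.14 at 2 h, 6 h and 8 h. Across the 9 members the corresponding values were 0.70, 0.77, -0.27 and 0.13 at 2, 4, 6 and 8 h. Genes are not independent replicates, and all values of a time point share the same pair of libraries. Cnr1, Napepld and Cnrip1, the members with the lowest GC content (44.6%, 45.8% and 46.6%), had values below 0 at 4 h. Faah, Daglb, Abhd12 and Dagla, between 52.9% and 58.8%, had values above 0, and Abhd6 (50.3%) and Mgll (55.1%) stood at -0.03 and -0.02.

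**Figure D5:**
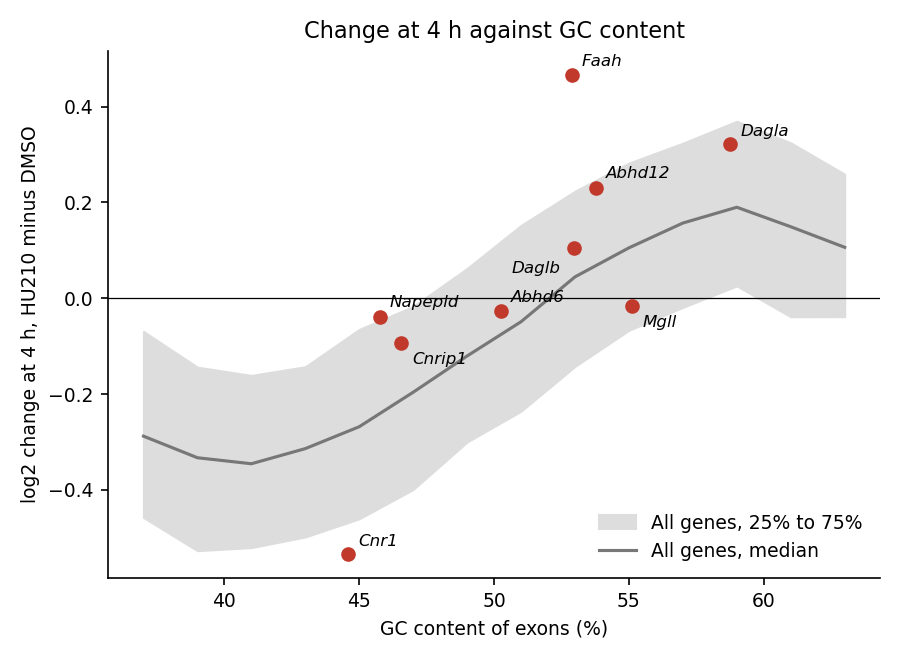
Log2 change at 4 h (HU210 minus DMSO, 1 library each) against the GC content of exons (%), with members in red, the median of all genes in bins of 2 percentage points as a line and the interquartile range in grey. Faah, at 52.9% GC and 0.47, and Cnr1, at 44.6% and -0.53, lie farthest from the median line.

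Of 38 further genes of the pathway, 32 were matched and 17 had a mean FPKM of at least 1, and limma called 0 of these 17 in any fit. At an unadjusted p under 0.05 it held 0 of them for the drug contrast, 4 for the slope and 1 for the late against the early effect, beside 1.31%, 11.7% and 17% of all genes. At 2 h 1 was lower by 1.3-fold, at 4 h 5 were lower, and none were higher by 1.3-fold at any time point, beside 3.91% and 19.9% of all genes that were lower at 2 h and 4 h. The shares of all genes that were higher were 1.49%, 8.97%, 6.39% and 4.38% at 2, 4, 6 and 8 h. Those lower at 4 h were Gprasp1, Sgip1, Plcb4, Gde1 and Naaa, named after their values were seen. The median log2 change of the 17 was -0.01, -0.09, 0.09 and -0.02 at 2, 4, 6 and 8 h. By role, 1 of 6 receptor partners was lower at 2 h and 2 of 6 at 4 h. Also lower at 4 h were 1 of 3 genes of diacylglycerol supply and 1 of 3 of other N-acylethanolamine synthesis. So was the single gene of other breakdown with a mean FPKM of at least 1. None of the 2 other receptors and 2 carriers at that level passed.

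Sgip1, which binds CB1R and slows its internalisation, was the one gene of this list, 1 of 17, to pass 1.3-fold at 2 or more time points, as 10.1% of all genes did. It was 16.4 FPKM with HU210 and 21.8 with DMSO at 2 h, 14.7 and 23.1 at 4 h, 18.5 and 14.8 at 6 h, and 13.7 and 16.7 at 8 h. The treatments overlapped, and as for Cnr1 the HU210 library was lower at 2 h, 4 h and 8 h and higher at 6 h. Its log2 changes were -0.39, -0.62, 0.30 and -0.26, and -0.34, -0.35, 0.21 and -0.30 with the GC and length trend removed, when none passed 1.3-fold.

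CB1R was the only classical cannabinoid receptor with an appreciable transcript level. Cnr2, which encodes CB2R and is also bound by HU210, had a mean of 0.0094 FPKM and at most 0.021, and Gpr55 was listed at 0 in all 8 libraries. Gpr18 reached at most 0.214 FPKM and Trpv1, the capsaicin receptor to which anandamide also binds, at most 0.020 in the 6 libraries that list it. The cation channel Trpv2 averaged 19.1 ± 2.11 FPKM (SD, n = 8) and the nuclear receptor Pparg 6.95 ± 1.04. Of the proteins that desensitise and sort the receptor, Arrb2 averaged 47.0 ± 3.70, Gprasp1 43.8 ± 6.51 and Grk2 26.0 ± 1.40 FPKM. Arrb1 and Grk3 were lower, at 13.1 ± 2.18 and 5.21 ± 0.242 FPKM.

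The 5 genes whose log2 levels followed Cnr1 most closely over the 8 libraries, given as a description without a test, were Fbxo25 (Pearson r of 0.98), Fpgt (0.98), Ap3d1 (0.97), Satb1 (0.97) and Sh3rf1 (0.97). Fbxo25 encodes a substrate adaptor of a ubiquitin ligase, Ap3d1 a subunit of the AP-3 sorting complex and Satb1 a chromatin organiser. The 5 were picked by this correlation in the same libraries, so a pattern of changes like that of Cnr1 is no separate result. For Satb1, the widest of the 5, the log2 changes were -0.12, -0.45, 0.29 and -0.16. Each of the 5 genes had values below 0 at 2 h, 4 h and 8 h and above 0 at 6 h. Their mean levels ran from 4.35 FPKM for Fpgt to 46.3 for Ap3d1.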

How the data were processed

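N2A mRNA was sequenced in 8 libraries, 1 per treatment and time point. The authors mapped reads to mm9 with TopHat2 2.0.8, Bowtie2 2.1.0 and SAMtools 0.1.7 and Ensembl gene models, and deposited FPKM from Cufflinks (upper-quartile normalization, with multi-read and fragment-bias correction) as FPKM plus 1, so 1 was taken off each value. The Cufflinks version is not given in the sources used here. The paper's materials name a stranded kit, the labels list reagents without one, and the strand setting of the counting is not given in the sources used here. Per the file headers the table also holds fold changes, p-values and adjusted p-values of the authors' comparisons, and a second table holds DEGs; neither was used.

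Genes listed at all 4 time points with a mean FPKM of at least 1 (11306 of 15888) were tested on log2(FPKM + 1) in R 4.3.3 with limma 3.58.1 (eBayes with a mean-variance trend, two-sided, Benjamini-Hochberg adjustment over all genes, called at 0.05). The model for the drug contrast held the time point as a factor, the slope was adjusted for treatment, and the late-minus-early drug effect for both. For the drug contrast, the p-values therefore measure the spread of the drug effect between time points. For the late-minus-early effect they measure that spread within the early hours and within the late hours only. For the slope they measure the spread of the libraries around a straight line over the hours. In every fit, eBayes also drew part of the error from the other genes. All 9 members passed the filter. In simulated data 200 of 11306 genes were changed. Of these, 81% were called for the drug contrast at a log2 change of 1, with 4 false calls. The share was 91% for a slope of 0.25 per hour, with 18 false calls, and 51.5% for a late-minus-early difference of 1.5, with 1. These sizes exceeded every member estimate, so the shares do not apply to changes as small as those of the members. The simulated noise was independent between genes and libraries, without trends shared by many genes.

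GC content, exon length and positions come from GENCODE vM1 on mm9. GC and length trends were fitted by loess and subtracted (span 0.3, degree 1). Sums, shares and ratios were compared over the 4 time points by exact permutation in scipy 1.17.1, with Python 3.11.15. Alternatives were another pseudocount, no filter, centred libraries, the GC and length trend removed, averaged DMSO libraries as reference, a 1.5-fold cutoff, no mean-variance trend, no time-point term and each time point left out.

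Members, gene lists, cutoffs and tests were chosen with earlier results of these data known. All members were named. Of the wider list, genes called or past 1.3-fold at 2 or more time points were to be named, with the 5 genes most correlated with Cnr1, and other names and levels from that list were chosen after their values were seen. The paper's proteomic data were not analysed here, nor were Gpr119, Plaat1, Inpp5d, Ptgs2, Alox15 and Fabp7.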

Additional observations from a re-analysis of the deposited data

How the results depend on the processing

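Limma called 0 members under every alternative to each of the 3 fits. The labels pair HU210 and DMSO by hour, and the time point served as the block. Without it the drug contrast also gave 0 calls, with 91 genes under an unadjusted p of 0.05. The number of genes called for the late-minus-early drug effect, 0 with all time points, ranged from 2 to 1735 with 1 time point left out: 1735 without 2 h, 2 without 4 h, 6 without 6 h and 2 without 8 h, each time with 0 members. The arm left with 1 time point was then assumed to vary like the other.

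The number of members past 1.3-fold at 2 h was 1 with the DMSO libraries averaged as the reference and 0 otherwise. At 4 h it was 2, and it became 3 with a pseudocount of 0.1, 3 with centred libraries, 1 with the GC and length trend removed, 0 against averaged DMSO libraries and 0 at a 1.5-fold cutoff. At 6 h it was 1, and it became 0 with centred libraries, 0 with the GC and length trend removed, 0 against averaged DMSO libraries and 0 at 1.5-fold. The cause was not tested.

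Estimates that passed no test changed sign as follows. For the drug contrast, the value was 0.0034 for Cnrip1 with the GC and length trend removed, 0.017 for Cnrip1 and 0.045 for Abhd6 without 2 h, 0.019 for Cnr1, 4.5e-05 for Cnrip1 and -0.013 for Dagla without 4 h, and -0.017 for Mgll without 6 h. For the slope, it was -0.00071 for Cnrip1 with centred libraries, -0.00058 for Cnrip1 with the trend removed, and -0.032 for Cnrip1 and 0.013 for Mgll without 2 h. For the late-minus-early effect, it was -0.093 for Daglb, -0.024 for Mgll and -0.037 for Napepld with centred libraries, -0.053 for Cnrip1 and -0.16 for Napepld with the trend removed, -0.026 for Daglb without 2 h, 0.028 for Abhd12 without 4 h and -0.010 for Daglb without 6 h. The estimates of these genes with 1 time point left out reached -0.31 for Cnr1, -0.066 for Cnrip1, 0.18 for Dagla, 0.062 for Mgll and -0.069 for Abhd6 in the drug contrast, 0.0093 for Cnrip1 and -0.023 for Mgll in the slope, and 0.13 for Daglb and -0.11 for Abhd12 in the late-minus-early effect at their other ends. Read depth per gene was unknown, so the counting error of low genes such as Napepld, Dagla and Mgll could not be given.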
